A study of Mus musculus with 6 samples.

Results

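The genes described here are the clustered histone genes of the mouse, taken as every row of the count table whose symbol begins with Hist1h, Hist2h, Hist3h or Hist4h. There are 70 of them among 55450 genes, and 47 had 10 or more counts summed over the 6 libraries. They comprise 6 linker H1 genes, 20 H2A, 19 H2B, 12 H3 and 13 H4 genes. Of the 70, 56 have Hist1 symbols and lie on chromosome 13, 10 lie in the Hist2 cluster on chromosome 3, 3 in the Hist3 cluster on chromosome 11 and 1, Hist4h4, on chromosome 6. Hist1h2al lies at 51202727 to 51203065, apart from the other Hist1 genes (21715763 to 23934851), but is counted with them. Hist1h2aj and Hist1h2al, counted as H2A, and Hist3h2bb-ps, counted as H2B, are annotated as pseudogenes. RNA was sequenced from CD8 T cells of mouse lymph node that had been sorted as lacking the surface proteins Ly6C and CXCR3, a naive population. The WT group holds 3 libraries from C57BL/6 mice, and the CD103KO group holds 3 libraries from Itgae-/- mice. Itgae encodes CD103, an integrin chain that pairs with integrin beta 7. Age, sex, the origin of the Itgae allele and the number of animals behind a library are not stated in the labels. A p-value here thus covers only the variation among these libraries. That variation may be technical in part, and only in WT do Xist and Ddx3y reads, given below, tell libraries apart.

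Histones package DNA into nucleosomes: H2A, H2B, H3 and H4 form the core, and H1 binds the DNA between cores. The clustered genes are mostly transcribed while DNA is copied, and most of their messages end in a conserved stem-loop in place of a poly(A) tail. Some clustered genes can also give a longer, polyadenylated message, which is known from resting and differentiated cells. The library kit selects polyadenylated RNA, so what was counted here is expected to hold few stem-loop-ended messages, and a level below is a level of polyadenylated or otherwise captured RNA, not of all histone RNA.

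The stem-loop, a 16-base element with a 6-base stem and a 4-base loop, is shown for the members on which the results turn, as it marks where the replication-type message would end. It was read from GENCODE M21 transcripts (GRCm38). Capitals mark the element and lower case the neighbouring bases.
Hist3h2ba: cccaaaGGCTCTTTTCAGAGCCaccttc
Hist3h2a: accaaaGGCTCTTTTCAGAGCCacccac
Hist1h1c: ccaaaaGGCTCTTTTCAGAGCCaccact
Hist1h1e: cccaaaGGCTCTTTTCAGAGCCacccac
Hist1h4i: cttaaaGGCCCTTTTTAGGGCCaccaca
Hist2h2aa1: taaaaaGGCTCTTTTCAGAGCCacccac
The element, matched with its usual permitted bases on the transcript strand, was found in the transcripts of 46 of the 70 members and in 39 of 58725 protein-coding transcripts of other genes (0.0664%). Lack of a match need not mean that the gene lacks the element. Some models without a match are short, such as Hist1h4k (312 bases), Hist1h2bl (381), Hist1h2ai (393) and Hist1h3h (411). These may stop at the end of the coding sequence. The form shown for Hist3h2ba was shared by 26 members of the H1, H2A, H2B and H3 classes, and the form of Hist1h4i by 2 H4 genes. Of the 21 members with enough counts to be tested, 18 held the element, and Hist2h2be, Hist1h2bc and Hist1h1a had no exact match.

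Annotated transcripts often ran on beyond the element, by 3 to 4884 bases with a median of 91 bases over the 46 members. The model of Hist3h2ba continued for 169 bases, that of Hist3h2a for 1643, that of Hist1h1c for 840 and that of Hist1h4i for 330, whereas Hist2h2aa1 and Hist2h2aa2 stopped 35 bases after it. A polyadenylation hexamer, AATAAA or ATTAAA, stood in the last 50 bases of at least 1 transcript of 17 of the 70 members. For other genes it stood there in 50.2% of protein-coding transcripts, a share counted per transcript and not per gene. Of these 17 members 9 were tested, and of the 53 without the hexamer 12 were. A model that stops at the end of the coding sequence can likewise lack the hexamer. Levels between genes were compared as CPM (counts scaled to a common library size) per kb of exon. In WT the median level was 1.61 CPM per kb for the 9 tested members with the hexamer and 0.440 CPM per kb for the 12 without it. The order was not the same in every class. The median was higher with the hexamer for H1 (1.61 against 0.239), H2A (4.28 against 3.10) and H2B (4.27 against 0.618). For H4 it was lower with the hexamer (0.374 against 0.512). Each of these medians rests on 1 to 4 genes, and no tested H3 gene held the hexamer. Hist2h2be (5.93 CPM per kb), Hist3h2a (4.28), Hist3h2ba (4.27) and Hist1h4i (3.35) were the highest with the hexamer. Hist4h4 (0.118), Hist2h4 (0.0995) and Hist1h2be (0.0396) were the lowest with the hexamer, below the median without it. Hist2h2aa1 (6.85) and Hist2h2aa2 (5.74) had none in their own annotated transcripts. However, Hist2h2aa1 shares 529 exonic bases with Gm20634 on the same strand, and Hist2h2aa2 is identical to Hist2h2aa1 over 528 bases. Gm20634 also covers every exonic base of Hist2h3c1, whose transcripts hold AATAAA near the end. Which transcript gave these reads was not tested, so the place of both genes on the side without the hexamer is uncertain.

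**Figure D1:**
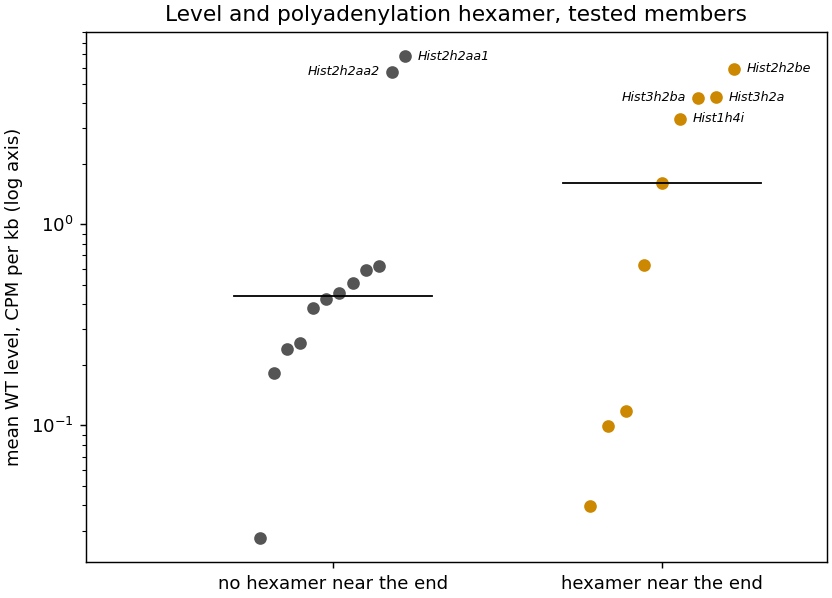
Mean WT level of the 21 tested histone cluster genes in CPM per kb of exon on a log axis, split by an AATAAA or ATTAAA in the last 50 bases of an annotated transcript; each point is 1 gene and the line is the median. The medians were 1.61 and 0.440 CPM per kb with and without the hexamer (0.374 and 0.512 within H4). Hist2h2aa1 and Hist2h2aa2 stand apart above the others without it. Their placing is uncertain, as Hist2h2aa1 shares 529 exonic bases with Gm20634.

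The libraries held 68292475 to 94347034 counts, so that 1 count is 0.0104 to 0.0147 CPM, and 13470 genes were tested. Itgae itself was at 482 ± 19.3 CPM in WT and fell to 65.6 ± 3.90 CPM in CD103KO (SD, n = 3; log2 fold change -2.88 with adjusted p = 4.058e-08, edgeR quasi-likelihood test). All 12 markers fixed for CD8 T cells were detected, with summed levels of 10684 to 10837 CPM in WT and 10541 to 10864 CPM in CD103KO. Xist was at 66.9 CPM in WT replicate 1 and 79.7 CPM in WT replicate 2, and each of these lacked the Y-linked Ddx3y. In every other library Xist had 2 counts or fewer, and Ddx3y ranged from 47.8 to 56.2 CPM. By these reads WT mixed female-type and male-type libraries, while all CD103KO libraries were male-type. Results are also given with a term for Xist, since the groups differ in it. B cell markers (10 of 10 detected, 3 called higher in CD103KO) ranged in sum from 26.0 to 29.3 CPM across WT and from 32.3 to 38.4 CPM across CD103KO libraries. Erythroid and platelet markers (7 of 8, Pf4 at 0, none called) ranged from 33.0 to 50.1 CPM across WT and from 57.4 to 93.0 CPM across CD103KO. Markers of myeloid cells (6 of 8, Cd14 and Fcgr1 at 0; 42.8 to 50.7 and 44.3 to 46.5 CPM), NK cells (4 of 4; 34.0 to 42.4 and 34.9 to 42.4 CPM) and CD4 or regulatory T cells (4 of 4; 2.78 to 3.89 and 3.16 to 4.53 CPM) overlapped between groups. Markers of dividing cells (7 of 7, none called) ranged from 56.7 to 62.9 CPM across WT and from 67.9 to 93.9 CPM across CD103KO. The part of such cells in the histone results was not tested.

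Histone cluster genes were a small share of the RNA, and their summed level was lower in CD103KO. The 70 genes summed to 42.9, 46.5 and 47.0 CPM in WT replicates 1, 2 and 3 and to 38.8, 37.3 and 34.2 CPM in CD103KO replicates 1, 2 and 3. Every CD103KO library lay below every WT library, with means of 45.5 ± 2.24 and 36.8 ± 2.33 CPM (SD, n = 3) and a ratio of 0.808. The difference of the means was -8.71 CPM, and most of it lay in the Hist3 cluster, where the WT mean was 11.9 ± 0.834 CPM and the CD103KO mean 6.10 ± 0.966 CPM (ratio 0.513). Without Hist3 the sums were 33.6 ± 1.71 and 30.7 ± 1.46 CPM (ratio 0.913). Outside it, Hist1 summed to 9.65 ± 0.464 and 7.65 ± 0.194 CPM without overlap, and Hist2, the most abundant cluster, to 23.6 ± 1.27 and 22.6 ± 1.43 CPM with overlap. Hist4h4 was at 0.337 ± 0.0144 and 0.404 ± 0.0862 CPM. These are sums over chosen genes and carry no p-value. In RNA from a sorted population, fewer cells that make a message and less of it per cell cannot be told apart.

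**Figure D2:**
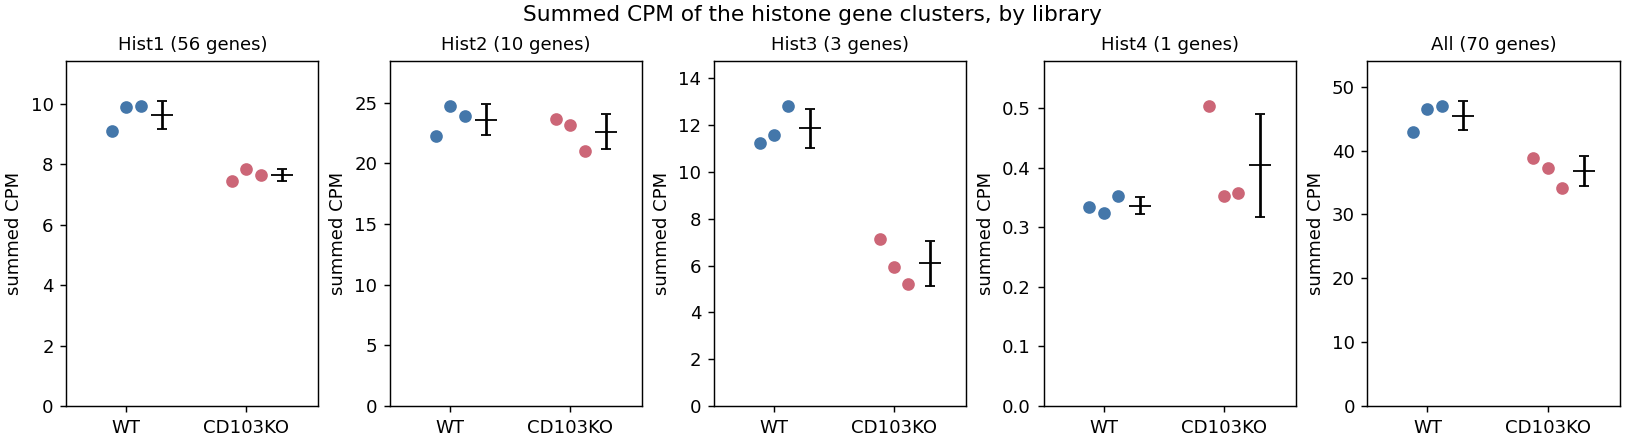
Summed CPM of the histone gene clusters and of all 70 members in each library, WT in blue and CD103KO in red, with the mean and SD of each group (n = 3) in black. Hist3 sums were 11.2 to 12.8 CPM in WT and 5.22 to 7.13 CPM in CD103KO, while Hist2 overlapped between groups.

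Of the 21 tested members, 17 had negative log2 fold changes and 4 positive ones, with a median of -0.31, against 51.0% negative and a median of 0.00 over all tested genes. A single member, Hist3h2ba, was called at an adjusted p of 0.05 (edgeR), and it was lower; of 13470 genes, 11 (0.0817%) were called lower, 19 (0.141%) higher and 0.223% in all. At an unadjusted p under 0.05, 7 members were lower and 0 higher, where 4.2% and 4.53% of all tested genes were. DESeq2 called 2 members, Hist3h2ba and Hist3h2a, both lower, where it called 0.356% of genes lower and 1.02% in either direction. The groups did not overlap for 8 members that were lower and 1 that was higher in CD103KO, a property of 7.38% and 6.82% of tested genes. Members do not count as independent here, since 19 of the 21 align to another gene at 90% identity or more and 17 of the 21 had a fractional count, the mark of reads shared out between genes, in at least 1 library.

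**Figure D3:**
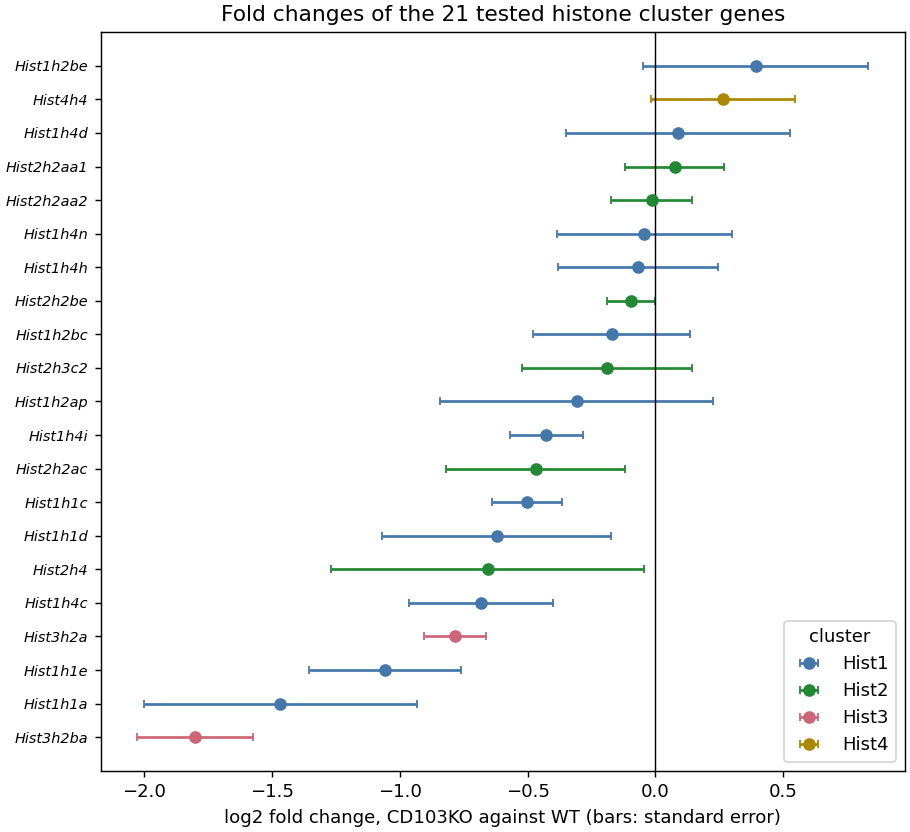
Log2 fold changes of the 21 tested histone cluster genes, CD103KO against WT, each with its standard error (edgeR) and coloured by cluster. Hist3h2ba (-1.80) lies farthest to the left, followed by Hist1h1a (-1.47), Hist1h1e (-1.06) and Hist3h2a (-0.78), while the positive values reach 0.39 for Hist1h2be.

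Hist3h2ba, an H2B gene, fell in CD103KO. It lies on chromosome 11 from 58948920 to 58949533 (GRCm38, plus strand, ENSMUSG00000056895.4), 14.1 Mb from Itgae on the same chromosome. Its level was 2.44, 2.88 and 2.54 CPM in WT replicates 1, 2 and 3, from 183, 276 and 202 expected counts. In CD103KO replicates 1, 2 and 3 it was 1.04, 0.558 and 0.661 CPM, from 76, 38 and 49.96 expected counts. The lowest WT library was thus more than double the highest CD103KO library, and CD103KO replicate 1 was the highest of its group. The change was -1.80 on the log2 scale (SE 0.23), with an adjusted p of 0.0164 in edgeR and 6.51e-10 in DESeq2. The size held without any single library, from -2.10 to -1.63, but the call did not: the adjusted p was 0.0633 without WT replicate 1, 0.0970 without WT replicate 2, and 0.0816 and 0.0820 without CD103KO replicates 2 and 3 (edgeR). With the Xist term, which leaves WT replicate 3 as the only WT library of its kind, the log2 fold change was -1.75 and the adjusted p = 0.238.

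Hist3h2a, the neighbouring H2A gene (58954685 to 58956830, plus strand, ENSMUSG00000078851.4), stood just outside the threshold. It was at 8.74, 8.58 and 10.2 CPM in WT replicates 1, 2 and 3 and at 6.10, 5.37 and 4.53 CPM in CD103KO replicates 1, 2 and 3, again without overlap. Its log2 fold change was -0.78 (SE 0.12), with an adjusted p of 0.0529 in edgeR and 2.75e-06 in DESeq2. EdgeR called it without CD103KO replicate 1 (adjusted p = 0.0246), and with the Xist term it was -0.94 (adjusted p = 0.175). Of its exonic bases 708, or 33.0%, also belong to Trim17 on the same strand, so the estimate can divide reads between both. Trim17 had 0 to 3.21 counts in WT and 6.87 to 9.36 in CD103KO, and the pair summed to 9.21 ± 0.898 and 5.45 ± 0.791 CPM (SD, n = 3).

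The remaining Hist3 member is the pseudogene Hist3h2bb-ps, which is 97.2% identical to Hist3h2ba over 359 bases and lies between both genes on the opposite strand. It had 3.04, 12.1 and 3.05 counts in WT replicates 1, 2 and 3 and 0, 0 and 2.04 counts in CD103KO, too few to be tested. Hist3h2ba and the pseudogene together averaged 2.69 ± 0.279 CPM in WT against 0.760 ± 0.247 CPM in CD103KO, a ratio of 0.283. The sum was thus lower in all 3 CD103KO libraries too. Rnf187, the nearest tested gene on the other side of Hist3h2ba and a ubiquitin ligase gene, was at 185 ± 1.84 and 163 ± 4.17 CPM. Its log2 fold change was -0.19, which edgeR did not call (adjusted p = 0.145) and DESeq2 did (0.00726).

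The promoters of both Hist3 genes are shown because both levels were lower in every CD103KO library. They run from 250 bases before to 50 bases after the start in RefSeq (GRCm38.p6, plus strand), Hist3h2ba at chr11:58948661-58948960 and Hist3h2a at chr11:58954435-58954734. Capitals mark the CCAAT box, the TATAAA box and the octamer ATTTGCAT, each searched on both strands.
Hist3h2ba: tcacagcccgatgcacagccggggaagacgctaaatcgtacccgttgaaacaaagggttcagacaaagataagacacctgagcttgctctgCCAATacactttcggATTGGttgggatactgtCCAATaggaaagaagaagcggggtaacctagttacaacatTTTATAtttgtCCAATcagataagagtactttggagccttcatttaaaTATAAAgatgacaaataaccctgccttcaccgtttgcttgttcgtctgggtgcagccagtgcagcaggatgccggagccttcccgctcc
Hist3h2a: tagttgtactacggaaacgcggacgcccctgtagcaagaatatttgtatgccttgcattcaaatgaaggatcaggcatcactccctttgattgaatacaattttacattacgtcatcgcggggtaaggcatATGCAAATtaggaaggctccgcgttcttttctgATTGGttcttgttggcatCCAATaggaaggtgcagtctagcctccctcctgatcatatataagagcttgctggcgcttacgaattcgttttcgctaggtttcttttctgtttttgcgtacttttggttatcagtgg
Both promoters held CCAAT, Hist3h2ba also TATAAA, and Hist3h2a also the octamer ATTTGCAT, which is known from H2B promoters as a site for OCT factors. RefSeq gave a promoter for 61 members. CCAAT was in 52 of the 61 and 37.8% of 26964 promoters of other genes. TATAAA was in 35 of the 61 and 14.1% of the others. ATTTGCAT was in 13 of the 61, 7 of 17 H2A and 6 of 16 H2B promoters, and in 1.71% of the others. Some H2A and H2B promoters overlap on opposite strands, such as those of Hist1h2aa and Hist1h2ba, so 1 motif can be counted for both. Of the H4 promoters 3 of 12 held CCAAT, while all those of the H1, H2A, H2B and H3 genes did. A match is a string of letters, not a site shown to be bound.

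**Figure D4:**
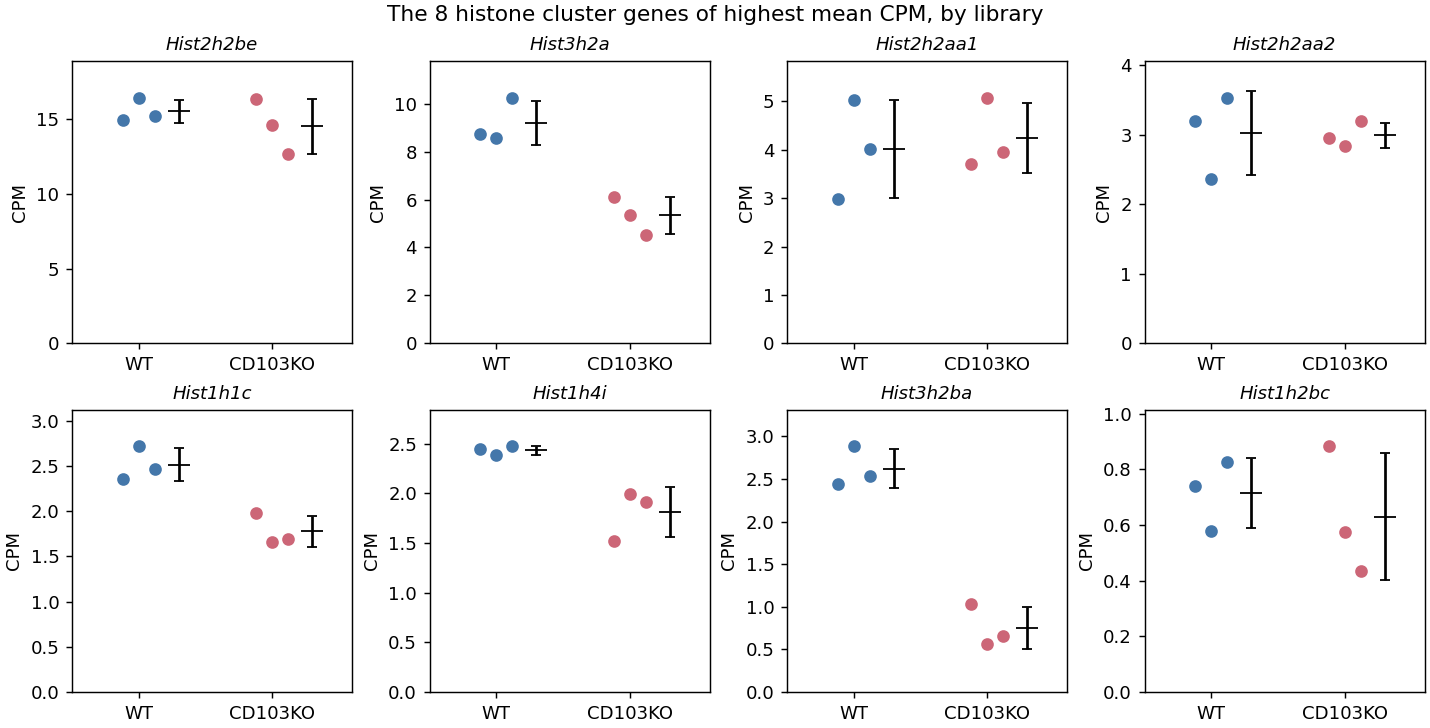
CPM of the 8 histone cluster genes of highest mean level in each library, with the mean and SD of each group (n = 3) in black. Hist3h2a, Hist1h1c, Hist1h4i and Hist3h2ba have groups that do not overlap, whereas Hist2h2be, Hist2h2aa1, Hist2h2aa2 and Hist1h2bc overlap.

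All 4 tested linker H1 genes of the clusters had negative log2 fold changes, without a call. The 6 genes summed to 3.15, 3.68 and 3.30 CPM in WT replicates 1, 2 and 3 and to 2.43, 1.98 and 2.19 CPM in CD103KO replicates 1, 2 and 3, a ratio of 0.651 without overlap. Hist1h1c, the most abundant clustered H1 gene, made up most of this. It was at 2.36, 2.71 and 2.46 CPM in WT and 1.97, 1.66 and 1.69 CPM in CD103KO. Its log2 fold change of -0.50 (SE 0.14) had an unadjusted p of 0.00534 and did not pass (adjusted p = 0.367, edgeR).

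Hist1h1e was at 0.512, 0.464 and 0.410 CPM in WT replicates 1, 2 and 3. In CD103KO it was at 0.197, 0.184 and 0.273 CPM, which gave -1.06 on the log2 scale (SE 0.30; adjusted p = 0.396, edgeR). Its exons share 496 bases with those of the H2B gene Hist1h2be on the same strand. Both genes also share 320 exonic bases with the pseudogene Gm11398 on that strand, which had 0 to 3.84 counts per library. In WT Hist1h2be was at 0.0986, 0.169 and 0.260 CPM, in CD103KO at 0.160, 0.272 and 0.251 CPM, and the pair summed to 0.638 ± 0.0305 and 0.446 ± 0.0846 CPM. That sum did not overlap between groups either. Hist1h1a had 11, 25 and 13 counts in WT and 4, 2 and 9 in CD103KO, again without overlap, which gave -1.47 on the log2 scale (SE 0.53; adjusted p = 0.487, edgeR). At these low counts the value was -2.15 without CD103KO replicate 3 and -1.13 without CD103KO replicate 2. Neither it nor Hist1h1c aligned to another gene at 90% identity. Hist1h1d overlapped between groups (0.205 ± 0.0615 and 0.133 ± 0.0625 CPM). Hist1h1b had 3 counts in all, and the testis gene Hist1h1t had 0.

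Among the tested H2A genes outside Hist3, none was called, and Hist2h2ac alone did not overlap between groups. Hist2h2aa1 and Hist2h2aa2 are identical over 528 bases, so their separate estimates are uncertain. On the opposite strand, Gm20633 covers 100% of the exonic bases of Hist2h2aa1 and Gm20632 100% of those of Hist2h2aa2. How strand was handled is not given, so these levels carry that limit too. Hist2h2aa1 ranged from 2.99 to 5.03 CPM in WT and 3.71 to 5.07 CPM in CD103KO, and Hist2h2aa2 from 2.36 to 3.53 and 2.84 to 3.19 CPM. Their sum overlapped between groups, at 7.04 ± 0.740 CPM in WT against 7.24 ± 0.629 CPM in CD103KO. Hist2h2aa1 also shares 529 exonic bases with Gm20634 on the same strand, and with that transcript the sum was 9.84 ± 0.573 and 9.94 ± 0.766 CPM. Hist2h2ac was at 0.228, 0.253 and 0.230 CPM in WT and 0.177, 0.118 and 0.212 CPM in CD103KO (adjusted p = 0.737, edgeR). Hist1h2ap, which is identical to Hist1h2ao over 452 bases, was at 0.186 ± 0.123 and 0.148 ± 0.0339 CPM.

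Hist2h2be, an H2B gene, was the most abundant member by CPM in both groups. It was at 14.9, 16.4 and 15.2 CPM in WT replicates 1, 2 and 3 and at 16.3, 14.6 and 12.7 CPM in CD103KO replicates 1, 2 and 3. The ranges overlapped, since CD103KO replicate 1 was higher than 2 of the WT libraries. Its log2 fold change was -0.10 (SE 0.09) and did not pass (adjusted p = 0.799, edgeR). All its counts were whole, and its longest match to another gene spanned 80 bases. Hist1h2bc, the other tested H2B gene of the Hist1 cluster beside Hist1h2be, was at 0.715 ± 0.126 and 0.630 ± 0.229 CPM with overlap.

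A single H3 gene, Hist2h3c2, had enough counts to be tested. It was at 0.503, 0.391 and 0.405 CPM in WT and at 0.226, 0.429 and 0.470 CPM in CD103KO. CD103KO replicate 1 alone lay below the WT libraries, and the log2 fold change of -0.19 (SE 0.33) did not pass (adjusted p = 0.901, edgeR). Hist2h3c2 is identical to Hist2h3c1, which had 0 counts, over 666 bases. Its counts were fractional in all 6 libraries, so its level is uncertain. The 12 H3 genes together held 1.11 ± 0.0923 CPM in WT against 0.935 ± 0.277 CPM in CD103KO, with overlap.

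Of the H4 genes, 7 were tested and none was called (2 at an unadjusted p under 0.05, both lower; 0 with DESeq2). Hist1h4i, the most abundant, was at 2.45, 2.38 and 2.47 CPM in WT and 1.52, 1.99 and 1.91 CPM in CD103KO. The WT libraries were close together and all above CD103KO, which gave -0.43 on the log2 scale (SE 0.14; adjusted p = 0.454, edgeR). Its nearest copy, Hist1h4n, is 96.6% identical over 350 bases, and their sum did not overlap between groups (2.65 ± 0.0200 and 2.02 ± 0.245 CPM). Hist1h4c was at 0.577, 0.498 and 0.386 CPM in WT. Its CD103KO values of 0.282, 0.288 and 0.330 CPM were all lower, which gave -0.68 on the log2 scale (SE 0.28; adjusted p = 0.535, edgeR). Hist4h4 went the other way, at 0.334, 0.324 and 0.352 CPM in WT and 0.504, 0.352 and 0.357 CPM in CD103KO. That separation is narrow, as the highest WT and lowest CD103KO library both print as 0.352 CPM, and the log2 fold change of 0.27 did not pass (adjusted p = 0.817, edgeR). Hist1h4h, Hist1h4n, Hist1h4d and Hist2h4 overlapped between groups, with means of 0.162 to 0.296 CPM in WT and 0.0994 to 0.284 CPM in CD103KO.

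A further 26 members had 10 or more counts but failed the filter on low counts, with 11.9 to 58.6 counts over the 6 libraries. Hist2h3b (58.6 counts), Hist1h3a (55.5) and Hist1h4m (49.0) were the most abundant of them. The others, in falling order of mean CPM over the 6 libraries, were Hist1h2bj, Hist1h2ac, Hist1h3c, Hist1h3f, Hist1h4b, Hist1h2ae, Hist1h3e, Hist1h2ag, Hist1h2ai, Hist1h2bg, Hist1h2bh, Hist1h2bb, Hist1h2ab, Hist2h2bb, Hist1h3h, Hist1h3i, Hist1h2bq, Hist1h2bm, Hist3h2bb-ps, Hist1h4a, Hist2h2ab, Hist1h2bk and Hist1h4k. Hist1h4k (11.9) and Hist1h2bk (13.0) were just inside the limit of 10 counts, and Hist1h2ak (9.51) and Hist1h3b (9.28) just outside it. Another 16 members had under 10 counts, and 7 had 0: Hist1h1t, Hist1h2aa, Hist1h2an, Hist1h2ao, Hist1h2ba, Hist1h2bf and Hist2h3c1. A total of 0 in a library allows a level of up to 0.0313 to 0.0440 CPM (3 counts, counting error only). Hist1h2ao is identical to Hist1h2ap over 452 bases and Hist2h3c1 to Gm20634 over 1825, and both of those had counts, so the 0 of these members depends on how reads were assigned. The 49 untested members together held 1.83 ± 0.198 CPM in WT against 1.83 ± 0.365 CPM in CD103KO, so the lower total was carried by the tested genes.

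Genes that make, process and deposit histones gave no edgeR call in either direction. Variant and replication-independent histones have mostly polyadenylated messages and are mostly made outside S phase as well. Of 15 listed genes, 10 were tested, 6 negative and 4 positive, with a median log2 fold change of -0.02. They were far more abundant by CPM, at 1598 ± 28.3 in WT and 1577 ± 33.8 in CD103KO, and overlapped between groups. H3f3a, an H3.3 gene and the most abundant, was at 688 ± 13.4 and 697 ± 9.56 CPM. The smallest p-values were those of H2afv, an H2A.Z gene (55.9 and 52.7 CPM on average, adjusted p = 0.642), and Cenpa, the centromeric H3 gene (14.4 ± 0.461 and 13.2 ± 0.725 CPM, adjusted p = 0.646, edgeR). None of the 10 had an unadjusted p under 0.05, and DESeq2 called 0.

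For histone message processing and turnover, 33 of 36 listed symbols were in the table and all 33 were tested, with 24 positive and 9 negative values and a median of 0.02. EdgeR and DESeq2 called 0, and the unadjusted p was under 0.05 for 2 with positive and 1 with negative values. Over all tested genes, 4.53% were higher and 4.2% lower at that unadjusted p (edgeR). Dcp2, a decapping enzyme, was at 95.0 ± 3.48 and 104 ± 2.16 CPM (adjusted p = 0.440, edgeR). Clp1, a cleavage factor, was at 37.9 and 34.1 CPM on average (0.506), and Ncbp1, a cap-binding protein and the most abundant of the list, at 144 ± 4.41 and 158 ± 11.4 CPM. Of 25 histone chaperone and import genes, 19 were positive and 6 negative with a median of 0.05 and 0 calls by either tool (unadjusted p under 0.05 for 6 with positive and 1 with negative values). Atrx, a chromatin remodeller, was at 173 ± 0.851 and 190 ± 5.14 CPM (adjusted p = 0.362, edgeR), Supt6, a transcription elongation chaperone, at 208 ± 10.1 and 229 ± 3.41 CPM (0.434), and Nap1l1, a nucleosome assembly protein and the most abundant, at 318 ± 13.5 and 292 ± 7.93 CPM.

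Genes of DNA synthesis and division mostly had positive log2 fold changes. Of 40 S phase genes, 35 were positive and 5 negative with a median log2 fold change of 0.10. Both tools called 0 of them, and the unadjusted p was under 0.05 for 5, all with positive values (edgeR). The list summed to 1308, 1208 and 1295 CPM in WT replicates 1, 2 and 3 and to 1276, 1305 and 1412 CPM in CD103KO replicates 1, 2 and 3, so the groups overlapped. Pcna, the replication clamp, was at 182 ± 13.6 and 194 ± 17.6 CPM, Uhrf1, a DNA methylation maintenance factor, at 18.4 ± 0.927 and 21.98 ± 2.19 CPM (adjusted p = 0.434, edgeR), and E2f8, a cell cycle transcription factor, at 1.01 ± 0.0867 and 1.57 ± 0.328 CPM (0.434). For G2 and mitosis, 32 genes were tested, of which 29 were positive and 3 negative with a median of 0.29. EdgeR called 0 (10 with positive values had an unadjusted p under 0.05), and DESeq2 called 3, all higher: Aurkb, a mitotic kinase, Bub1b, a spindle checkpoint gene, and Mki67, a proliferation marker. The sums were 620, 633 and 614 CPM in WT replicates 1, 2 and 3 and 657, 658 and 713 CPM in CD103KO replicates 1, 2 and 3, without overlap. CD103KO replicate 3, highest for this list, had the lowest histone sum of all libraries. That is 1 library, and a relation between these sums was not tested. Aurkb was at 1.54 ± 0.0857 and 2.62 ± 0.287 CPM (adjusted p = 0.123 in edgeR and 0.00815 in DESeq2), Bub1b at 4.28 ± 0.173 and 5.96 ± 0.758 CPM (0.228 and 0.0408), and Mki67 at 10.5 ± 0.757 and 17.2 ± 4.76 CPM (0.257 and 0.00143). Smc4, a condensin subunit and the most abundant of the list, was at 372 ± 19.4 and 386 ± 2.90 CPM. For all the lists, the median over all tested genes was 0.00. At an unadjusted p under 0.05 (edgeR), 4.53% of all tested genes were higher and 4.2% lower. DESeq2 called 1.02% of them in either direction.

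**Figure D5:**
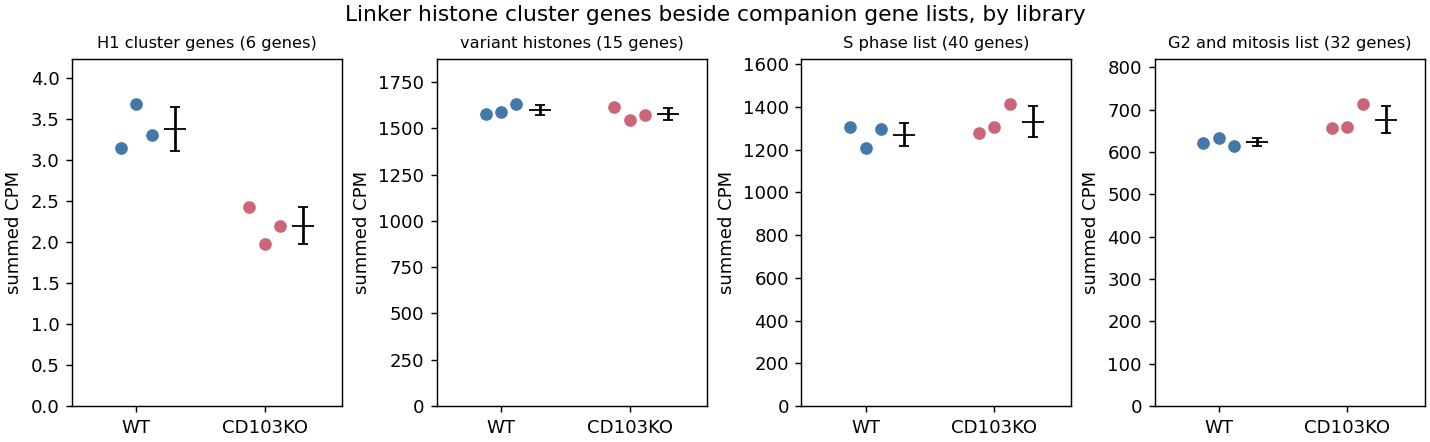
Summed CPM in each library of the 6 linker H1 cluster genes, the 15 variant histone genes, the 40 S phase genes and the 32 G2 and mitosis genes, with the mean and SD of each group (n = 3) in black. H1 sums were 3.15 to 3.68 CPM in WT and 1.98 to 2.43 CPM in CD103KO, and G2 and mitosis sums were 614 to 633 and 657 to 713 CPM.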

How the data were processed

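RNA-seq of 6 libraries, 3 WT and 3 CD103KO, was analysed. Per the submitters' processing notes, the tools included cutadapt 1.18, STAR 2.7.0f and RSEM, on GRCm38 (mm10). For RSEM, neither the version nor how it handled strand and shared reads is given in the labels. Deposited by the authors were expected counts, estimates per gene that need not be whole; 6.48% of all values and 58.6% of those of the histone cluster genes were not whole. They were rounded for testing, and CPM use the unrounded values over TMM-scaled library sizes.

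CD103KO was compared with WT in edgeR 4.0.16 (R 4.3.3): filterByExpr defaults (minimum count 10), TMM, the quasi-likelihood test on group alone, Benjamini-Hochberg over 13470 genes at 0.05. A standard error is the log2 fold change divided by the square root of F. The script was tested on simulated data. Rules and lists were chosen with earlier results of these data known. Named were Itgae, tested members, the neighbours of the called member, and genes that share exons with tested members on the same strand. Gm20633 and Gm20632 were named for their full overlap on the opposite strand. Each list also gave its 2 genes of smallest p and its most abundant gene. Mki67 and H1f0 were added after their values were seen. All 55450 identifiers matched GENCODE M21, the source of coordinates and exon lengths; megablast (BLAST+ 2.17.0) compared transcripts. Alternatives were other factors and filters, DESeq2 1.42.0, limma-voom (limma 3.58.1), the replicate block, an Xist term and each library left out. Plots used matplotlib 3.10.9.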

Additional observations from a re-analysis of the deposited data

How the results depend on the processing

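The lower histone sum in CD103KO kept its direction under every alternative run for it, with a difference of -9.996 to -7.44 CPM when 1 library was left out (-8.71 with all). The count of called histone genes was 1, and 0 to 2 when 1 library was left out. It was 2 with no filter, with DESeq2 and at an adjusted p of 0.1. It was 0 with the Xist term and with only the libraries without Xist reads; both settings rest on WT replicate 3 alone for the difference between groups, and that lone library is assumed to vary like the others. Same-numbered libraries did not deviate together (correlations of -0.20, -0.01 and -0.03), so the numbers do not pair them; the replicate block left 0 histone calls, with Hist3h2ba at -1.83 (adjusted p = 0.0688, edgeR), and 24 calls over all genes. Over all genes the count was 30, 19 to 59 with 1 library left out (59 without CD103KO replicate 1, 52 without WT replicate 3 and 19 without CD103KO replicate 2), 112 with no filter, 137 with DESeq2, 15 with the Xist term and 13 with only the libraries without Xist reads. Companion lists went from 0 calls to 2 with no filter and 3 with DESeq2, and had 0 with any library left out. Some fold changes changed sign, among them the highest positive value, that of Hist1h2be (0.39). These were Hist2h2aa2 with limma-voom (0.024), and, with the Xist term and with only the libraries without Xist reads, Hist1h4n (0.10 and 0.10), Hist1h4d (-0.030 and -0.029) and Hist1h2be (-0.19 and -0.19). With 1 library left out, ranges that crossed 0 were -0.10 to 0.27 for Hist2h2aa1, -0.17 to 0.11 for Hist2h2aa2, -0.50 to 0.036 for Hist1h2bc, -0.40 to 0.065 for Hist2h3c2, -0.22 to 0.074 for Hist1h4h, -0.22 to 0.12 for Hist1h4n, -0.19 to 0.36 for Hist1h4d and -0.68 to 0.38 for Hist1h2ap. The cause was not tested. Depth limits most members: 13 of the 21 tested have WT means under 0.5 CPM, and shared sequence makes single-gene levels uncertain.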
